A study of Drosophila melanogaster with 16 samples.

Results

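The 6 germline genes of the piRNA pathway described here were followed in OSS, a cultured line of Drosophila melanogaster ovarian follicle cells, a somatic cell type. The genes were rhi, spn-E, tud, aub, AGO3 and vas, chosen by name, 6 of the 13892 genes with a coding sequence (CDS) in the deposited files. Each was read in its model with the longest CDS, as unique counts on the gene's own strand in all 16 libraries. In the NUN libraries 3 of them, tud, spn-E and rhi, lay above the median gene, and 3, aub, AGO3 and vas, lay below it. No knockdown moved any of the 5 genes with enough counts to test past the threshold of an adjusted p of 0.05, and vas was not tested.

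Cells on a 10 cm plate were electroporated with 500 pmol of siRNA and grown for 6 days. The siRNAs were against both PAF1 and PIWI (the double knockdown), against PIWI alone (siPIWI), against PAF1 alone (siPAF1), or against GFP (siGFP, the negative control). RNA came from a pellet that the labels call NUN without spelling it out, and from a cytoplasm lysate (cyto), with 2 strand-specific libraries, OSS_146 and OSS_147, in each of 8 groups. All groups share the line, the electroporation and the culture time, the controls included, and the labels do not say whether OSS_146 and OSS_147 were separate cultures, so p-values reflect only how far the libraries of this set scatter, which may be technical.

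piRNAs are small RNAs that guide Argonaute proteins of the Piwi clade to transposon transcripts. In germ cells of the fly ovary the pathway has a nuclear arm, in which Rhino lets piRNA clusters be transcribed from both strands, and a cytoplasmic arm in the perinuclear nuage, where Aubergine and AGO3 cut transposon and cluster transcripts in turn with helicases such as Vasa and Spindle-E and scaffold proteins such as Tudor. Follicle cells are known for a simpler pathway that rests on Piwi alone.

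The NUN libraries held 2080794 to 4623806 CDS counts, and the cyto libraries 663876 to 1759084. Counts in the 3' window made 9.3% to 16.4% of CDS plus 3' counts in NUN and 31.2% to 37.7% in cyto, and the opposite strand took 4.70% to 6.79% of CDS counts in NUN and 0.36% to 0.76% in cyto. Among the siRNA targets, piwi averaged 64.0 ± 30.8 CPM (counts scaled to TMM library sizes) in siPIWI cyto libraries and 68.4 ± 45.8 CPM in the double knockdown, against 296 ± 14.0 CPM in siGFP (SD, n = 2 each). These piwi differences did not pass the threshold (adjusted p = 0.303 and 0.144, edgeR). The Paf1 gene, listed in the files as atms, averaged 10.6 ± 1.41 CPM in the double knockdown and 8.29 ± 3.36 CPM in siPAF1 cyto libraries, against 168 ± 3.49 CPM in siGFP, and fell in both (adjusted p = 0.000148 and 5.92e-05, edgeR). In NUN, piwi averaged 909 ± 228 CPM in the double knockdown and 732 ± 201 CPM in siPIWI, against 1032 ± 36.5 CPM in siGFP, and atms averaged 26.5 ± 10.6 CPM in the double knockdown and 22.3 ± 5.60 CPM in siPAF1, against 70.4 ± 17.2 CPM in siGFP. Neither target passed the threshold in any knockdown in NUN. The lower adjusted p of the targets there was 0.397 in the double knockdown and 0.237 in siPAF1 (edgeR).

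The label of the cells was checked against marker genes. The follicle cell gene tj, a transcription factor of the ovarian soma, stood at 1735 CPM per kb of CDS over the NUN libraries, above 99.9% of genes, and zfh1, br and bab2 stood at 242, 183 and 150 CPM per kb. Of 10 follicle cell markers 8 lay above the median gene in NUN, and ct and CG14059 lay below it, at 6.27 and 7.41 CPM per kb. Of 10 markers of other cells 9 lay below the median gene, and Mef2, a transcription factor of muscle, stood at 52.5 CPM per kb, above 81.7% of genes. Of 19 germline markers, 4 had at most 3 summed counts over the 8 NUN libraries, with 1 count each for osk, zpg and bcd and 2 for nos. In cyto, osk, zpg, bcd, otu and swa had 0 counts, where 28.1% of all genes had none. Of the 19, 6 lay above the median gene in NUN and 4 in cyto. The germline list was not silent throughout, since dhd, pgc and mei-P26 stood at 280, 90.1 and 136 CPM per kb in NUN. The summed level of the 19 markers was 626 to 710 CPM in the double knockdown, 680 to 746 CPM in siPIWI and 672 to 718 CPM in siPAF1, against 763 to 771 CPM in siGFP, and the part of this in the values below was not tested. In RNA of bulk cells, fewer cells that express a gene and less RNA per cell cannot be told apart.

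**Figure D1:**
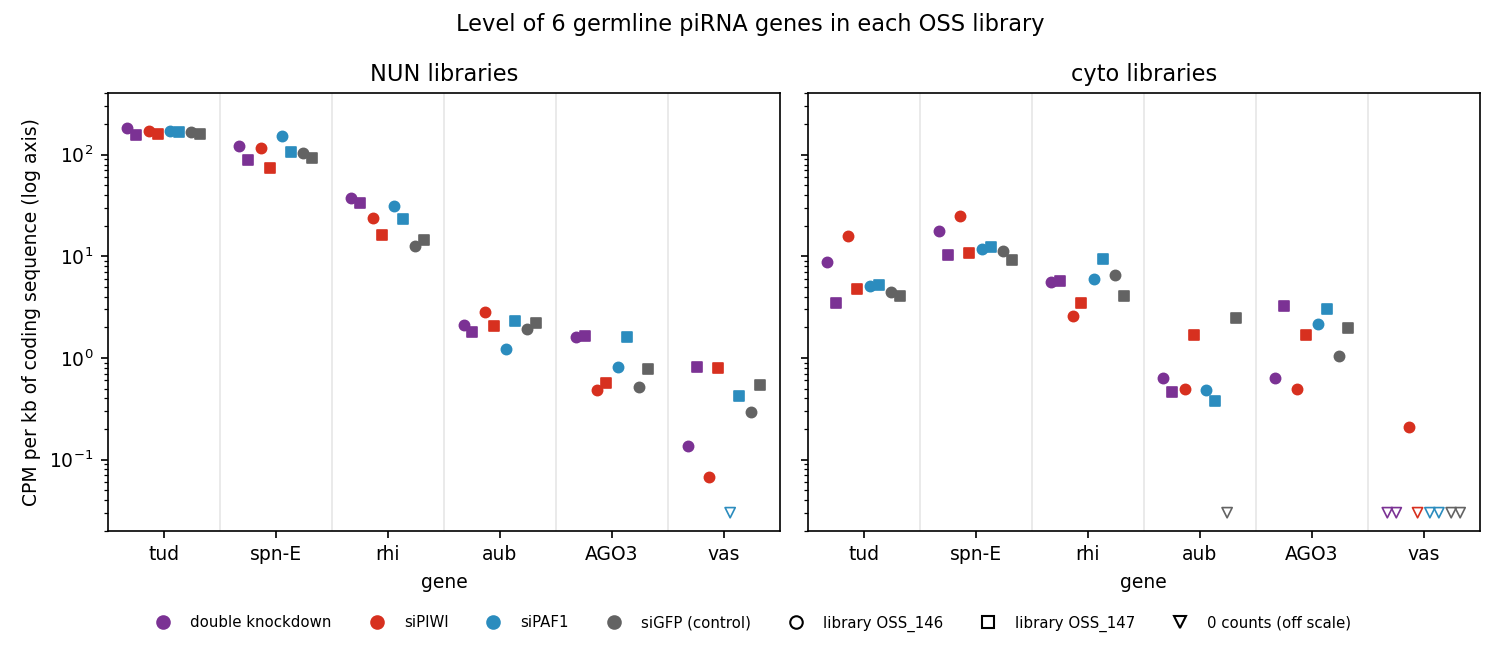
Level of each gene in each library, in CPM per kb of CDS on a log axis, for NUN (left) and cyto (right). Colours mark the knockdown, circles OSS_146 and squares OSS_147, and open triangles libraries with 0 counts. In NUN the genes fall in a high set of tud and spn-E, rhi between, and a low set of aub, AGO3 and vas with at most 2.80 CPM per kb.

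In NUN the order of median levels over 8 libraries was tud, spn-E, rhi, aub, AGO3 and vas. tud, a scaffold with many Tudor domains that bind methylated Piwi proteins, had a median of 167 CPM per kb, with a range of 156 to 184, and spn-E, a helicase with a Tudor domain, a median of 105 with a range of 73.2 to 152. The ranges of tud and spn-E did not overlap. Over the pooled NUN counts tud stood above 96.1% and spn-E above 92.7% of all genes with a CDS. rhi, an HP1 relative that binds heterochromatin at piRNA clusters, had a median of 23.5 CPM per kb with a range of 12.6 to 37.4, above 65.4% of genes. The median gene stood at 8.19 CPM per kb.

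The 3 remaining genes were near the level that genes show on their opposite strand, where the median was 0.452 and the 90th percentile 6.35 CPM per kb. aub, the Piwi-clade slicer that takes piRNAs against transposon mRNA, had a median of 2.09 CPM per kb with a range of 1.23 to 2.80. AGO3, its partner slicer, had a median of 0.796 with a range of 0.479 to 1.65, and vas, the DEAD-box helicase of the nuage, had a median of 0.357 with a range of 0 to 0.807. The ranges of aub and AGO3 overlapped, as did those of AGO3 and vas. The opposite-strand level was at or above the own-strand level of aub in 23.0% of genes, of AGO3 in 35.3%, of vas in 54.5% and of rhi in 2.43%.

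In cyto the order differed. spn-E had a median of 11.6 CPM per kb with a range of 9.30 to 24.9, rhi 5.67 with a range of 2.56 to 9.42, and tud 4.95 with a range of 3.50 to 15.8, so that neighbours in this order overlapped. The place of tud rests on the CDS: over the whole locus, introns included, the own strand of tud held 22.9 to 49.2 CPM per kb of window in cyto, spn-E 7.72 to 17.0 and rhi 0.852 to 2.67, in the order of NUN and without overlap. AGO3, aub and vas had medians of 1.83, 0.489 and 0 CPM per kb, and the median gene stood at 1.33. On the opposite strand in cyto the median was 0 and the 95th percentile 0.814 CPM per kb. That level was at or above the own-strand level of AGO3 in 2.92% of genes, of aub in 5.52% and of vas in 40.6%. Levels in NUN and cyto were scaled separately, so they are not set against each other here.

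Overlapping genes and models bear on the vas counts. The vas model with the longest CDS, of 3096 bases and 1031 residues by its length, has the CDS length that a later annotation gives to solo, a gene that shares exons with vas, and the model with the CDS length of vas there has 1986 bases and 661 residues. Both were therefore read. The longest-CDS model lies at 15061655 to 15072133 on chromosome 2L. The gene vig lies within the vas locus on the opposite strand, and the opposite strand of the vas locus held 205 to 1515 counts in each library. The own strand of the vas locus held 2 to 20 counts in each NUN library and 0 to 2 in each cyto library.

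vas was at or near 0 in every group. The 3096-base model had 1 and 7 counts in the double knockdown, 1 and 5 in siPIWI, 0 and 5 in siPAF1 and 2 and 5 in siGFP NUN libraries (OSS_146 first in each pair). The 1986-base model had 2 and 5, 1 and 6, 0 and 5, and 3 and 3 counts in the same libraries and order of groups. OSS_147 held at least as many counts as OSS_146 in every NUN group with both models, and all groups overlapped. In cyto the 3096-base model had 1 count in 1 siPIWI library and 0 in the others, and the 1986-base model had 0 to 2 counts in each library. The 0 counts over both siGFP cyto libraries allow up to 1.98 CPM, at 3 counts over the group, and this limit covers counting error only. vas did not pass the count filter in any fit and was not tested.

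**Figure D2:**
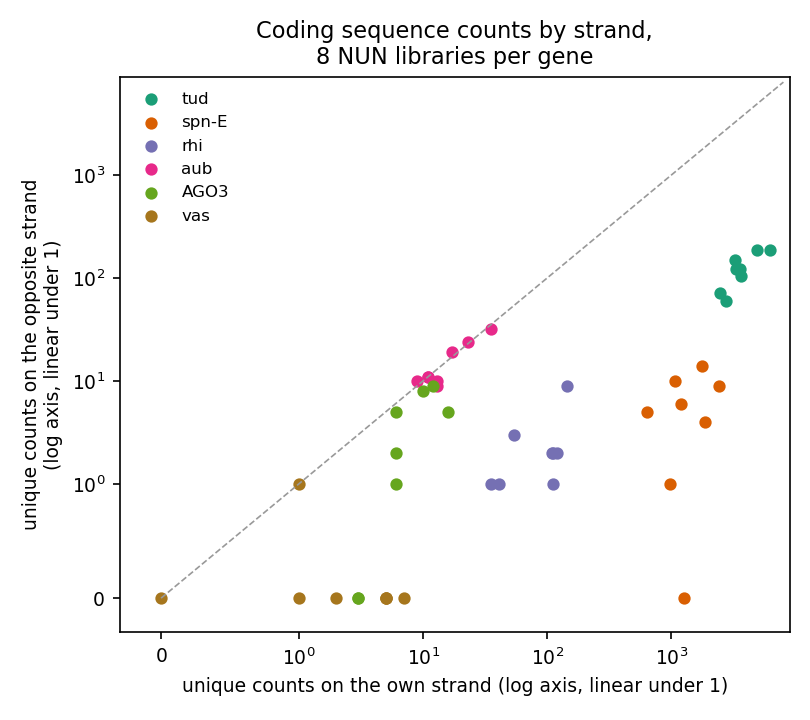
Unique CDS counts on the own strand (horizontal) and the opposite strand (vertical) in each of 8 NUN libraries for each gene, on log axes that are linear under 1. The dashed line marks equal counts: aub points lie along it, AGO3 points lie below it, 2 of them with 0 opposite-strand counts, and those of tud, spn-E and rhi lie far below it.

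The strands of aub, at 10997818 to 11001489 on chromosome 2L, had nearly equal counts. aub had 13 and 13 own-strand counts in the double knockdown, 35 and 11 in siPIWI, 9 and 23 in siPAF1 and 11 and 17 in siGFP NUN libraries. Its opposite strand had 10 and 9, 32 and 11, 10 and 24, and 11 and 19 counts in the same order. The pairs followed each other from library to library, so that the opposite strand took 126 of the summed NUN counts and the own strand 132, an opposite share of 48.8%. The median share was 3.82% over 10704 genes with at least 20 counts. The nearest gene, CG16833, lies 118 bases away on the opposite strand, and what the opposite-strand counts come from was not tested. The log2 difference of aub from siGFP was -0.10 ± 0.49 in the double knockdown, 0.27 ± 0.47 in siPIWI and -0.20 ± 0.48 in siPAF1 (adjusted p = 1, 1 and 0.879, edgeR). In cyto aub had 0 to 5 own-strand counts in each library and 2 on the opposite strand in all.

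AGO3 was low and lay in a locus of 135008 bases, at 23547714 to 23682722 on chromosome 3L. It had 10 and 12 CDS counts in the double knockdown, 6 and 3 in siPIWI, 6 and 16 in siPAF1 and 3 and 6 in siGFP NUN libraries. On library size these were 4.20 and 4.29 CPM in the double knockdown, 1.25 and 1.48 in siPIWI, 2.12 and 4.18 in siPAF1 and 1.36 and 2.02 in siGFP. The double knockdown and siPAF1 lay above both siGFP libraries, and siPIWI overlapped siGFP. The log2 difference of AGO3 was 1.28 ± 0.64 in the double knockdown, -0.37 ± 0.73 in siPIWI and 0.89 ± 0.64 in siPAF1 (adjusted p = 0.89, 1 and 0.61, edgeR), so none passed the threshold. The own strand of the whole locus averaged 56.5 ± 5.61 CPM in the double knockdown, 20.3 ± 7.52 in siPIWI and 50.7 ± 4.0 in siPAF1, against 24.8 ± 8.20 in siGFP (SD, n = 2 each). The opposite strand of the locus averaged 92.3 ± 14.9, 57.3 ± 5.39 and 54.7 ± 28.3 CPM in these knockdowns, against 49.4 ± 17.3 CPM in siGFP. The opposite strand of the AGO3 CDS took 32.6% of its NUN counts, and 23.7% of genes with at least 20 counts had a higher share. What this strand's part is in the AGO3 values was not tested.

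In cyto, AGO3 had 4 and 7 counts in the double knockdown, 2 and 3 in siPIWI, 9 and 8 in siPAF1 and 2 and 4 in siGFP. The 3' window of the gene held 38 counts over the cyto libraries and the CDS 39, with the same number in both windows in all but 1 library. These are not separate tallies, since reads were counted in both windows. In the siPAF1 library OSS_146 the CDS held 9 counts, the 3' window 8 and the whole locus only 10. In the siGFP library OSS_147 they held 4, 4 and 5. The 2601-base AGO3 model, which has another 3' end, had 0 or 1 CDS count in each cyto library.

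rhi had 112 and 119 counts in the double knockdown, 144 and 41 in siPIWI, 110 and 111 in siPAF1 and 35 and 54 in siGFP NUN libraries. On library size these were 47.0 and 42.5 CPM in the double knockdown, 29.9 and 20.2 in siPIWI, 39.0 and 29.0 in siPAF1 and 15.9 and 18.2 in siGFP. Both libraries of each knockdown lay above both siGFP libraries, with the highest mean in the double knockdown and the lowest of the 3 in siPIWI, whose libraries overlapped those of siPAF1. The log2 difference from siGFP was 1.39 ± 0.29 in the double knockdown (SE, edgeR, unadjusted p = 0.000758, adjusted p = 0.283), 0.58 ± 0.29 in siPIWI (unadjusted p = 0.0754, adjusted p = 1) and 0.99 ± 0.29 in siPAF1 (unadjusted p = 0.00672, adjusted p = 0.403), from the edgeR quasi-likelihood test over 8232 genes. None of the 3 passed the threshold. The rhi p in the double knockdown ranked among the lowest 0.267% of genes, where 5.89% of genes had an unadjusted p under 0.05. Against siPIWI the double knockdown differed by 0.81 ± 0.28 (unadjusted p = 0.0153, adjusted p = 1), and against siPAF1 by 0.40 ± 0.27 (unadjusted p = 0.17, adjusted p = 0.975). With no count filter the rhi difference in the double knockdown passed the threshold (log2 1.40, adjusted p = 0.00607), in a fit that called 81 of 12376 genes, against 1 of 8232 with the filter. With the DESeq2 test it did not (adjusted p = 0.0644).

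**Figure D3:**
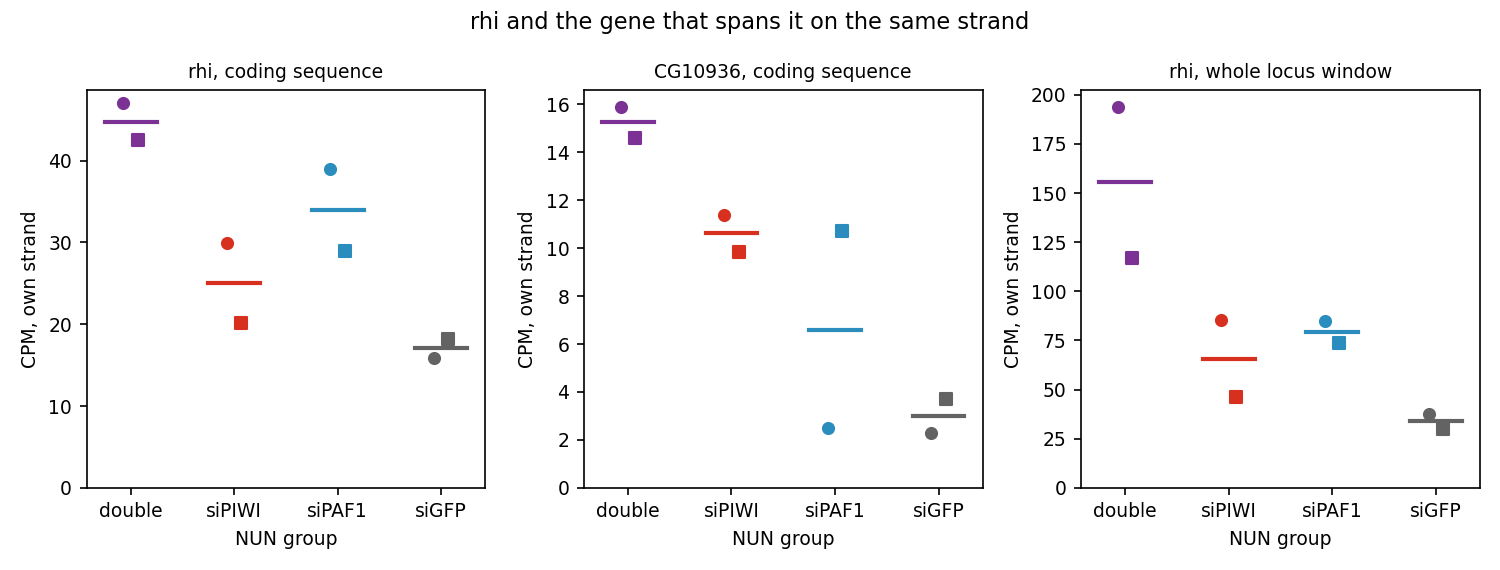
CPM on the own strand in each NUN library for rhi CDS, the CDS of CG10936, which spans rhi on the same strand, and the whole rhi locus window. The values are not per kb, and the CDS of rhi has 1257 bases and that of CG10936 4575. The locus window differed in length between libraries. Circles are OSS_146, squares OSS_147 and bars the mean of both: rhi CDS lies at 42.5 to 47.0 CPM in the double knockdown and 15.9 to 18.2 in siGFP, and the CDS of CG10936 at 14.6 to 15.9 CPM in the double knockdown and 2.27 to 3.70 in siGFP.

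The rhi locus lies at 13515993 to 13521018 on chromosome 2R in the files' coordinates, whose build is not given in the sources used here, within CG10936 at 13492455 to 13526639 on the same strand. CG10936 had 38 and 41 CDS counts in the double knockdown, 55 and 20 in siPIWI, 7 and 41 in siPAF1 and 5 and 11 in siGFP. Its log2 difference from siGFP was 2.31 ± 0.61 in the double knockdown (adjusted p = 0.486), 1.80 ± 0.62 in siPIWI (adjusted p = 1) and 1.15 ± 0.64 in siPAF1 (adjusted p = 0.55). The CDS of CG10936 has 4575 bases and that of rhi 1257. Per kb of CDS, CG10936 averaged 3.34 ± 0.201 CPM in the double knockdown, against 0.653 ± 0.222 in siGFP (SD, n = 2 each). rhi averaged 35.6 ± 2.53 and 13.5 ± 1.30 CPM per kb in the same groups. Reads of CG10936 that run through rhi cannot be told apart by strand, and their part in the rhi values was not tested.

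The whole rhi locus gave differences of the same sign as its CDS. It held 194 and 117 CPM in the double knockdown, 85.3 and 46.3 in siPIWI, 85.0 and 73.7 in siPAF1 and 37.6 and 30.0 in siGFP, with each knockdown above siGFP, and a log2 difference of 2.21 in the double knockdown (adjusted p = 0.077). The 3' window of rhi held 116 and 89 counts in the double knockdown, 99 and 5 in siPIWI, 6 and 47 in siPAF1 and 3 and 7 in siGFP. That window was 325 to 2217 bases long, depending on the library, so these counts are not on 1 scale. The locus window, which includes it, was 6518 and 7018 bases long in the double knockdown and 5218 and 5268 in siGFP. The locus CPM and their log2 difference are therefore not on 1 scale either. Per kb of window the locus held 29.7 and 16.7 CPM in the double knockdown and 13.0 and 8.82 in siPIWI. It held 16.6 and 12.8 in siPAF1 and 7.21 and 5.69 in siGFP. In cyto, rhi had 17 and 6 counts in the double knockdown, 5 and 3 in siPIWI, 12 and 12 in siPAF1 and 6 and 4 in siGFP. No cyto difference of rhi passed the threshold, and the siPIWI value was in the other direction from NUN, at a log2 of -0.84 ± 0.86. The difference between the NUN and cyto changes of rhi was 1.48 ± 0.75 for siPIWI (adjusted p = 0.543) and 1.29 ± 0.68 for the double knockdown (adjusted p = 0.78, edgeR).

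spn-E, at 11663158 to 11670138 on chromosome 3R, had 1266 and 1079 counts in the double knockdown, 2428 and 640 in siPIWI, 1851 and 1767 in siPAF1 and 983 and 1195 in siGFP NUN libraries. These were 531 and 385 CPM in the double knockdown, 505 and 315 in siPIWI, 656 and 462 in siPAF1 and 446 and 402 in siGFP, with the groups overlapping apart from siPAF1 against siGFP. The log2 difference from siGFP was 0.11 ± 0.28 in the double knockdown, -0.04 ± 0.28 in siPIWI and 0.40 ± 0.28 in siPAF1 (adjusted p = 0.997, 1 and 0.599). The 95% interval of the siPIWI value, taken from its SE on a normal approximation, was -0.59 to 0.50. With 2 libraries a group such an interval is narrower than the F test would give. Pbp45 lies within spn-E on the opposite strand, and spn-E's opposite strand took 0.4% of its NUN counts.

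tud varied by 0.070 on the log2 scale around its mean over the NUN libraries, against 0.300 for spn-E and 0.539 for rhi. It lies at 17070936 to 17079903 on chromosome 2R and had 3305 and 3289 counts in the double knockdown, 6239 and 2471 in siPIWI, 3668 and 4858 in siPAF1 and 2773 and 3598 in siGFP NUN libraries. On library size it averaged 1281 ± 150 CPM in the double knockdown, 1257 ± 56.9 in siPIWI and 1284 ± 20.8 in siPAF1, against 1234 ± 32.4 in siGFP (SD, n = 2 each). The log2 difference from siGFP was 0.05 ± 0.18 in the double knockdown, 0.03 ± 0.18 in siPIWI and 0.06 ± 0.18 in siPAF1. The 95% intervals, taken as for spn-E and with the same limit, were -0.30 to 0.40, -0.32 to 0.38 and -0.29 to 0.41.

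**Figure D4:**
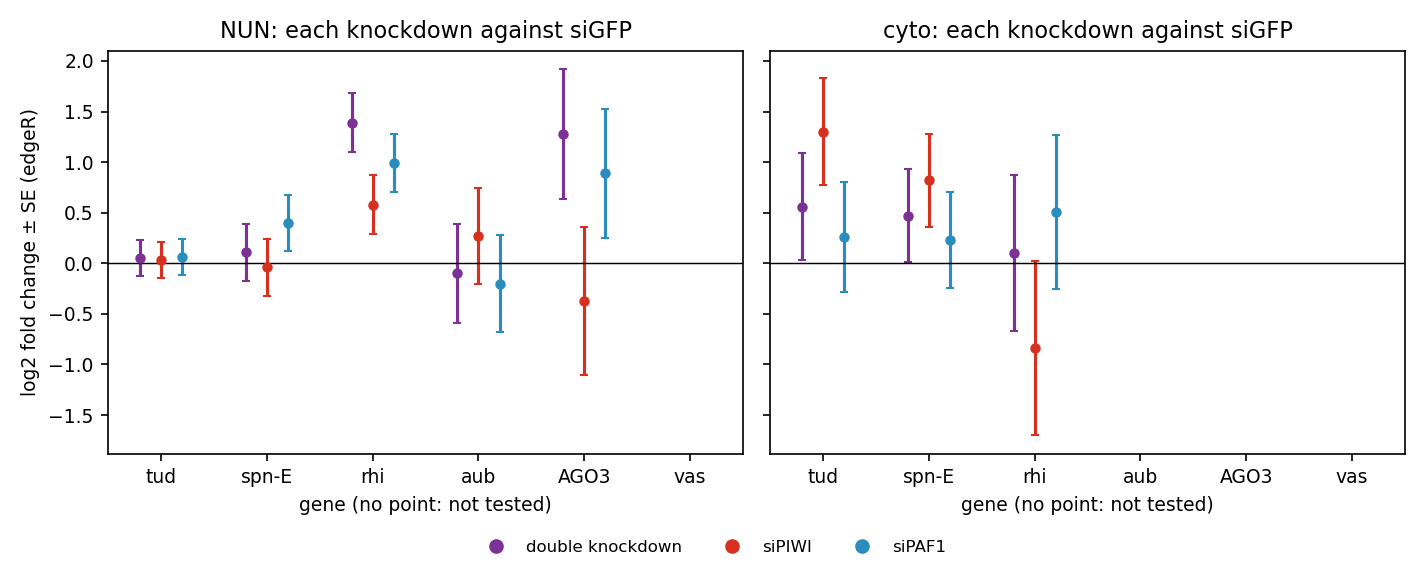
log2 fold change ± SE (edgeR) of each gene in each knockdown against siGFP, in NUN (left) and cyto (right), with genes that did not pass the count filter left blank. In NUN tud lies at 0 within its error, and rhi lies above 0 in all 3 knockdowns, at 1.39 in the double knockdown.

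Over the genes together, 5 of 6 passed the count filter in NUN and 3 (rhi, spn-E and tud) in cyto. In NUN none passed the threshold in the double knockdown, where 0.0121% of genes did, in siPIWI, where 0.121% did, or in siPAF1, where 0% did. At an unadjusted p under 0.05, only rhi counted in siPAF1 and in the double knockdown, and none in siPIWI, while 10.2%, 5.89% and 2.17% of genes did in siPAF1, the double knockdown and siPIWI. DESeq2 called none of the genes in these comparisons either. Against siPIWI alone the double knockdown had rhi and AGO3 at an unadjusted p under 0.05, at 0.81 and 1.64 ± 0.65 on the log2 scale, and none past the threshold, where 3.61% and 0% of genes did. Against siPAF1 alone it had none at either level, where 2.81% of genes had an unadjusted p under 0.05 and 0% passed the threshold.

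In cyto none passed the threshold in the double knockdown, siPIWI or siPAF1, where 0.0175%, 0% and 0.105% of genes did. At an unadjusted p under 0.05 only tud in siPIWI counted, where 11.3%, 15.1% and 9.68% of genes did in the double knockdown, siPIWI and siPAF1. DESeq2 called none of the genes there. tud had 160 and 22 counts in the double knockdown, 185 and 25 in siPIWI, 61 and 40 in siPAF1 and 25 and 24 in siGFP cyto libraries. OSS_146 was far above OSS_147 in the double knockdown and siPIWI. The log2 difference of tud in siPIWI was 1.30 ± 0.53 (unadjusted p = 0.0235, adjusted p = 0.303). Leaving out the siPIWI library OSS_147 gave 1.84 with an adjusted p of 0.0073, in a fit that called 449 of 6229 genes (366 higher and 83 lower), against 0 of 5714 with all libraries. Over the whole locus the value with all libraries was -0.41.

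NUN and cyto were compared in siGFP. Of 5 genes tested, 3 passed the threshold, where 66.9% of genes did and 70.1% had an unadjusted p under 0.05. Genes that rose in NUN made 36.7% of those tested. TMM factors ran from 0.375 to 1.83 over the libraries of this fit, and the median log2 difference of all genes was 0.55. The 0 point of these differences is thus set by the scaling, and so are the signs of small ones. tud rose in NUN by 3.68 ± 0.52 on the log2 scale (adjusted p = 1.54e-06) and spn-E by 1.69 ± 0.44 (adjusted p = 0.00175). AGO3 fell by 2.72 ± 0.99 in NUN (adjusted p = 0.0188, from 9 counts in NUN and 6 in cyto). The AGO3 call was lost without the NUN library OSS_146 (adjusted p = 0.0659) and without the cyto library OSS_147 (adjusted p = 0.239), and over the whole locus the value turned to 1.32. rhi and aub did not pass, at -0.20 ± 0.52 and -0.85 ± 0.92. Over the whole locus rhi was 1.46 higher in NUN (adjusted p = 0.0149). The knockdown changes themselves differed between NUN and cyto for none of 5 genes tested, at an adjusted or an unadjusted p under 0.05. The share of all genes with an unadjusted p under 0.05 was 5.64% for the double knockdown, 9.18% for siPIWI and 5.14% for siPAF1, and 0% passed the threshold in each (edgeR).

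**Figure D5:**
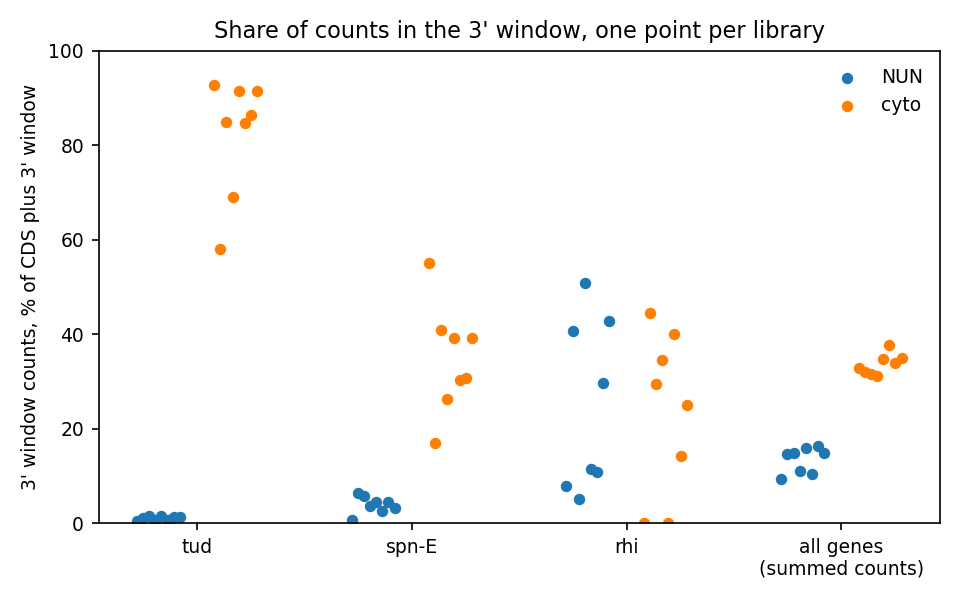
Counts in the 3' window as a share of CDS plus 3' window counts in each library, for tud, spn-E, rhi and all genes summed, in NUN (blue) and cyto (orange). The length of the 3' window differed between libraries. tud lies near 0% in NUN and at the top of the cyto points, with 79.9% of its summed cyto counts in the 3' window.

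The size of the tud difference rests on where its reads lie. tud had 2154 3' window counts and 542 CDS counts in cyto, a 3' share of 79.9%, against 1.1% in NUN. The windows were of unlike length, 719 or 769 bases in cyto libraries and 322 or 519 in NUN libraries. The 2 shares are therefore not on 1 scale. The median gene had 31.7% in cyto, and 12.4% of genes were above tud. Over the whole locus the tud difference was 0.80 (adjusted p = 0.012). spn-E had 31.2% in cyto and 4.5% in NUN, with windows of 360 to 472 bases in cyto and 372 to 1922 in NUN. Some spn-E reads were counted in both windows in each cyto library. In the siGFP cyto library OSS_147 the CDS held 31 counts, the 3' window 20 and the whole locus only 43.

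Other germline piRNA genes were read for comparison. All 12 names matched the files, 10 passed the count filter in NUN, and none passed the threshold in the 3 knockdowns against siGFP. Of the 12, 8 lay above the median gene in NUN and 8 in cyto. The highest in NUN were krimp and squ, which act in the nuage, and del, a partner of Rhino, at 125, 145 and 44.7 CPM per kb. The lowest in NUN were cuff, the other partner, at 3.19, tej at 0.749 and boot, listed as CG13741, at 0.570. In cyto the highest was moon, listed as CG12721, at 153 CPM per kb. Of 17 genes of the somatic pathway all passed the count filter in NUN and none passed the threshold in the 3 knockdowns. In siPAF1, squ was at a log2 difference of 1.19 ± 0.34 (adjusted p = 0.403) and vls, a nuage protein that acts with the arginine methyltransferase of Piwi proteins, at -1.30 ± 0.28 (adjusted p = 0.285, edgeR), both named after their values were seen. The median log2 difference of the 10 germline genes tested was -0.10 in the double knockdown, 0.05 in siPIWI and 0.01 in siPAF1, where the median of all genes was 0.00 in each.

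The genes whose pattern over the 8 NUN libraries was most like rhi, by the root mean square difference of log2 CPM after each gene's own mean was removed, were ds, at 0.130, CG10903, at 0.262, and pex2, at 0.268, among 7244 genes.  For spn-E they were mus301, cac and CG9902, at 0.094, 0.106 and 0.109, and for tud they were CG6509, CG10083 and ico, at 0.041, 0.050 and 0.050. CG10936, which spans rhi, ranked 6553 in likeness to rhi, at 0.805.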

How the data were processed

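RNA of OSS cells was measured in 16 libraries. The authors deposited raw counts of uniquely aligned reads per region and strand for 24995 transcript models, with coordinates and lengths, and RPM values that were not used here. Bowtie is named without a version, per the submitters' processing notes, and the genome build is not given in the sources used here. The genes and lists were chosen with earlier results of these data known. For each gene the model with the longest CDS was taken and counts on its own strand were tested in R 4.3.3. After the filterByExpr filter, edgeR 4.0.16 gave TMM factors and a robust quasi-likelihood test, with Benjamini-Hochberg adjustment over all genes and a threshold of 0.05, on 8232 genes in NUN, 5714 in cyto and 7982 across fractions. The 2 libraries of a group share the spread of the fit. Levels are CPM on TMM library sizes, per kb of CDS. Named were all 6 genes, genes overlapping them, the most abundant of each list and the 3 closest in pattern. Other list genes, such as the lowest of a list, were named by their values. The CDS length was the same in all files, while the 3' window differed between them in 18480 models and the locus window in 21038. The fit was also run on simulated counts with known changes, and how many of these it recovered is not reported here. Alternatives were other size factors, DESeq2 1.42.0, other count filters, both strands, the whole locus, a replicate block and leaving out each library.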

Additional observations from a re-analysis of the deposited data

Results flagged for a closer look

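On the opposite strand of the tud CDS, the double-knockdown NUN libraries held 270 counts (122 and 148), siPIWI 187 and 72, siPAF1 104 and 185, and siGFP 60 and 121. On library size these were 51.2 and 52.8 CPM in the double knockdown, 38.9 and 35.5 in siPIWI, 36.8 and 48.3 in siPAF1 and 27.2 and 40.7 in siGFP. The double knockdown lay above both siGFP libraries, while the own strand of tud gave a log2 difference of 0.05 ± 0.18. On the opposite strand of the AGO3 CDS, double-knockdown NUN libraries held 17 counts (8 and 9), siPIWI 5 and 0, siPAF1 7 (2 and 5) and siGFP 0 and 1. On library size these were 3.36 and 3.21 CPM in the double knockdown, 1.04 and 0 in siPIWI, 0.708 and 1.31 in siPAF1 and 0 and 0.337 in siGFP. These signals lie outside the own-strand counts that the comparisons use. How many of all genes have opposite-strand counts that separate in this way was not counted, and 2 libraries a group can also separate by chance. The source of these signals was not tested.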

How the results depend on the processing

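Of 810 values of single genes under an alternative, 745 kept their direction and their side of the threshold, and 60 turned direction. Of those that kept their direction, 3 fell short of the threshold and 2 passed it. Some turned values crossed it as well. Between NUN and cyto over the whole locus, rhi passed it (adjusted p = 0.0149, edgeR) and AGO3 fell short (adjusted p = 0.069, edgeR). In the knockdowns 0 of the 6 genes were called, except 1 in the NUN double knockdown with no count filter (rhi, where 81 of 12376 genes were called) and 0 to 1 in siPIWI cyto with single libraries left out (tud without the siPIWI library OSS_147, where 449 of 6229 genes were called). The vas level in siGFP NUN was 0.418 CPM per kb with the 3096-base model and 0.597 with the 1986-base model. Turned values under both strands together were 0.08 for AGO3 in siPIWI NUN, -0.14 for aub in the double knockdown against siPAF1, and 0.01 for aub between NUN and cyto. Over the whole locus they were -0.02 for tud in siPAF1 NUN, 0.04 for rhi in siPIWI cyto, -0.43, -0.41 and -0.35 for tud in the double, siPIWI and siPAF1 cyto libraries, 1.32, 0.02 and 1.46 for AGO3, aub and rhi between NUN and cyto, -0.68 for AGO3 in the siPIWI change between fractions, and 0.47, 0.43 and 0.35 for tud in the double, siPIWI and siPAF1 changes between fractions. tud in the double knockdown against siPAF1 was 0.00 and turned to values of 0.00 to 0.07 under the whole locus (0.07), DESeq2 size factors, the DESeq2 test, both strands (0.01), both count filters and library sizes without the 20 most abundant genes (0.01). With CDS plus 3' window, aub and rhi between NUN and cyto turned to 0.08 and 0.90. This window and the 1986-base vas model were chosen after seeing the data. The cause of these turns was not tested.

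With libraries left out singly, values that turned ranged as follows on the log2 scale. In NUN siPIWI spn-E ranged from -0.43 to 0.26 and tud from -0.02 to 0.08, in NUN siPAF1 aub ranged from -0.75 to 0.15, and in the NUN double knockdown aub ranged from -0.20 to 0.02, spn-E from -0.13 to 0.33 and tud from -0.06 to 0.17. In the double knockdown against siPIWI spn-E ranged from -0.14 to 0.55 and tud from -0.08 to 0.14, and against siPAF1 aub ranged from -0.25 to 0.65 and tud from -0.12 to 0.11. In the cyto double knockdown rhi ranged from -0.21 to 0.43 and tud from -0.27 to 1.01. Between NUN and cyto aub ranged from -1.80 to 6.29 and rhi from -0.49 to 0.17. Of the changes between fractions, for siPIWI AGO3 ranged from -0.45 to 1.26 and aub from -6.36 to 1.73, for siPAF1 AGO3 ranged from -0.47 to 0.50, aub from -5.84 to 2.25 and spn-E from -0.10 to 0.38, and for the double knockdown aub ranged from -6.12 to 1.97, spn-E from -0.69 to 0.12 and tud from -0.99 to 0.36. The aub extremes leave out the siGFP cyto library OSS_147, the one of that group with a count.

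Libraries of 1 number were not paired in the main test. The correlations of their deviations were -0.31 to 0.65 between groups of a fraction. They were highest for NUN siGFP with the NUN double knockdown (0.65) and for cyto siPIWI with the cyto double knockdown (0.57). The lowest was for NUN siGFP with NUN siPIWI (-0.31). Between the NUN and cyto libraries of 1 siRNA they were -0.01 to 0.17. Some groups may thus share deviations by number, which the main test leaves out. With the replicate block the number of the 6 genes called stayed 0 in the knockdowns and was 2 between NUN and cyto, where AGO3 was -2.24 (adjusted p = 0.0651) and rhi turned to 0.00, and AGO3 in the siPAF1 change between fractions turned to -0.01. With the block, 6 genes of all were called in NUN siPIWI, against 10 without it, and 0 in the NUN double knockdown, against 1. In cyto 7, 76 and 72 genes were called in siPIWI, siPAF1 and the double knockdown with it, against 0, 6 and 1 without it. A crossed pairing, chosen after seeing the data, called 28, 14 and 59 genes in NUN siPIWI, the double knockdown against siPIWI and the cyto double knockdown. The DESeq2 test called 25, 19 and 32 genes in the NUN double knockdown, siPIWI and siPAF1, and no count filter 81, 38 and 193, against 1, 10 and 0. With single libraries left out, 0 to 8 genes were called in NUN siPIWI (0 without either siGFP library or the siPIWI library OSS_146), 0 to 2 in the NUN double knockdown, 0 in NUN siPAF1, 0 to 449 in cyto siPIWI (28 without OSS_146), 1 to 9 in cyto siPAF1 and 1 to 5 in the cyto double knockdown. vas did not pass the count filter, and AGO3 and aub had 3 to 16 and 9 to 35 counts in each NUN library, so depth limits these values.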
